A study of Mus musculus with 2 samples.

Results

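The Hox genes are the transcription factor genes that tell cells of the embryo where they lie along the head-to-tail axis. Every row of the count table whose symbol was Hoxa, Hoxb, Hoxc or Hoxd followed by digits alone was taken as a member, with no measured value used in the choice. This gave 39 genes of 33963 rows, namely 11 Hoxa, 10 Hoxb, 9 Hoxc and 9 Hoxd genes. Their reads, 45707 in all, were counted in 17720 single mouse cells.

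The cells, labelled as strain 129/Ola, came from 5 populations that were tagged with antibodies, pooled and sequenced as 1 library, with a further library for the tags. The naive population was Rex1-GFP mouse embryonic stem cells (mESCs), kept on gelatin in 2iL, a medium with LIF and a pair of kinase inhibitors. The primed population was Oct4GIP mouse epiblast stem cells (mEpiSCs), grown with FGF2 and Activin A, and plated on mouse embryonic fibroblast (MEF) feeder cells before reversion. The d8 and d16 populations were Oct4GIP cells after 8 and 16 days with AICAR, an activator of the energy sensor kinase AMPK, together with the cytokine LIF, on MEF feeders. The d16+10p population was d16 cells expanded for 10 further passages in 2iL on gelatin. Each population was 1 sample of 1 line, so no comparison below has a replicate, no p-value is given, and intervals cover counting error only. The intervals take each read as independent, although PCR copies are counted, so they can be too narrow. 
In mammals the Hox genes lie in 4 clusters, and genes at the same place in different clusters, the paralogs, carry the same number. Low numbers are used from the hindbrain backwards, middle numbers in the trunk, and high numbers towards the tail and the ends of the limbs. Within a cluster the low-numbered genes are switched on earlier in the embryo, in the posterior epiblast, under the control of Wnt, FGF and retinoic acid signals and the Cdx factors. The forebrain and midbrain use none of them, and fibroblasts keep in culture the Hox code of the body part they came from.

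On the GRCm38 build (GENCODE M21) the Hoxa genes spanned chr6:52155590-52260880, the Hoxb genes chr11:96194316-96368256, the Hoxc genes chr15:102921103-103036852 and the Hoxd genes chr2:74668310-74765142. All 39 carry a homeobox of 180 bases, which codes for the 60 residues that bind DNA, and in all 39 it lay whole in the last exon of the coding transcript. It is shown for 3 genes that mark patterns described here, a trunk pair (Hoxb9 and Hoxc8) and a posterior gene (Hoxc13). The capitals mark bases 142 to 159, which code for the core of the helix that lies in the major groove of the DNA.
Hoxb9: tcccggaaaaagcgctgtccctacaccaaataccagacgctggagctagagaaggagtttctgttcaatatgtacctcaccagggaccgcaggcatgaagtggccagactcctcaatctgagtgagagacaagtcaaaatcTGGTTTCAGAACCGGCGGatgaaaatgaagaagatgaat
Hoxc8: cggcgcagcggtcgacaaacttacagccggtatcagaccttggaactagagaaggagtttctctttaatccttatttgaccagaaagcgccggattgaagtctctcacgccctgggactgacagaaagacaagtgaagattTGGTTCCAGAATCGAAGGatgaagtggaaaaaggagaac
Hoxc13: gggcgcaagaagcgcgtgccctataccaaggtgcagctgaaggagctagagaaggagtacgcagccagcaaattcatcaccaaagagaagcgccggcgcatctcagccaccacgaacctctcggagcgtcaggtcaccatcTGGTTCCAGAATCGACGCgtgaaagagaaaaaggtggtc
These homeoboxes lay in exon 2 of 2 of each gene, at chr11:96274659-96274838 on the plus strand, chr15:102992571-102992750 on the plus strand and chr15:102927210-102927389 on the plus strand. Hoxb9 shared 114 of the 180 bases with Hoxc8 and 103 with Hoxc13, and Hoxc8 shared 96 with Hoxc13. Over all 39 genes, the 42 pairs with the same number shared a median of 145 bases (121 to 169) and the 699 other pairs a median of 109 (83 to 160). Within the 18 bases in capitals the pairs shared a median of 15.

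Since the homeoboxes are alike and many Hox transcripts overlap noncoding ones, the share of 50-base stretches of each gene that also occur in another gene was counted. It was 0.233% for Hoxb9, 0.432% for Hoxc8 and 0 for Hoxb1 and Hoxc13. It reached 60.3% for Hoxd3, 51.4% for Hoxb3 and 25.9% for Hoxb2, the last 2 with the antisense transcript Hoxb3os, and reads of these genes cannot be told apart from those of their partners. Hoxa6 had 8 reads in all, Hoxd12 14 and Hoxa11 56, and levels of these genes are not interpreted.

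The populations held 9627 d8, 4315 d16, 1826 primed, 1151 d16+10p and 801 naive cells, with median depths of 10185 (d16) to 21551 (d16+10p) reads per cell, and no barcode was in more than 1 population. The cells were also grouped into 17 clusters from 2000 variable genes, with the Hox genes kept out so that they defined none. The labels were checked against marker genes. Of the naive cells, 521 of 801 lay in cluster 5, where all 6 naive markers (Zfp42, Dppa5a, Esrrb, Tfcp2l1, Nanog and Klf2) were at least 2-fold above the other cells. Only 430 of the 1826 primed cells lay in cluster 11, where 4 of 5 primed markers (Pou5f1, Pim2, Pou3f1 and Utf1) were at least 2-fold higher. The other 1396 primed cells were spread over clusters of other types. MEF feeders were part of the culture, and whether these cells were feeders or carried the wrong tag was not tested. Primed values are therefore given for all cells and for the 430 cells, called the primed core. The listing of lines in the study gives both as XX, yet reads of the Y-linked gene Ddx3y stood at 58.2 CPM (reads of the gene per 1000000 reads of the cells) in the naive cells, against 3.74 CPM in the primed core.

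Summed over the 39 genes, the Hox level was low in every population, and it was highest in the primed and d8 cells. It was 168 CPM (95% interval 163 to 173) in primed cells and 174 (172 to 176) at d8. It was 107 (102 to 112) in naive cells, 102 (97.8 to 106) at d16+10p and 93.2 (90.7 to 95.8) at d16. The naive and d16+10p intervals overlapped, the d16 level lay below both, and the primed and d8 levels lay well above all 3. A Hox read was found in 71.4% of naive, 70.2% of d16+10p, 66.1% of d8, 58.7% of primed and 46.4% of d16 cells. When each cell was thinned to 5000 reads, leaving out 68 naive, 69 d16+10p, 755 d8, 271 primed and 604 d16 cells that were shallower, the share of the cells kept was highest at d8 (42.2%), followed by naive (39.3%), primed (37.9%), d16+10p (35.1%) and d16 (29.1%) cells. In macrophage-like cluster 8, which was chosen as a background, 57.3% of cells had a Hox read at a median depth of 17411 reads (29.2% after thinning). Naive pluripotent cells were the other background chosen, and the naive cells stood at 71.4% (39.3% after thinning). After thinning, the d16+10p and primed shares lay between these values and the d16 share lay next to the lower one. The naive cells are also compared with others below, and cluster 8 was not free of Hox reads, with Hoxb9 at 18.7 CPM in its d8 cells. The values therefore set no floor. Shares of cells with any Hox read are not interpreted, and the levels below rest on summed reads.

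**Figure D1:**
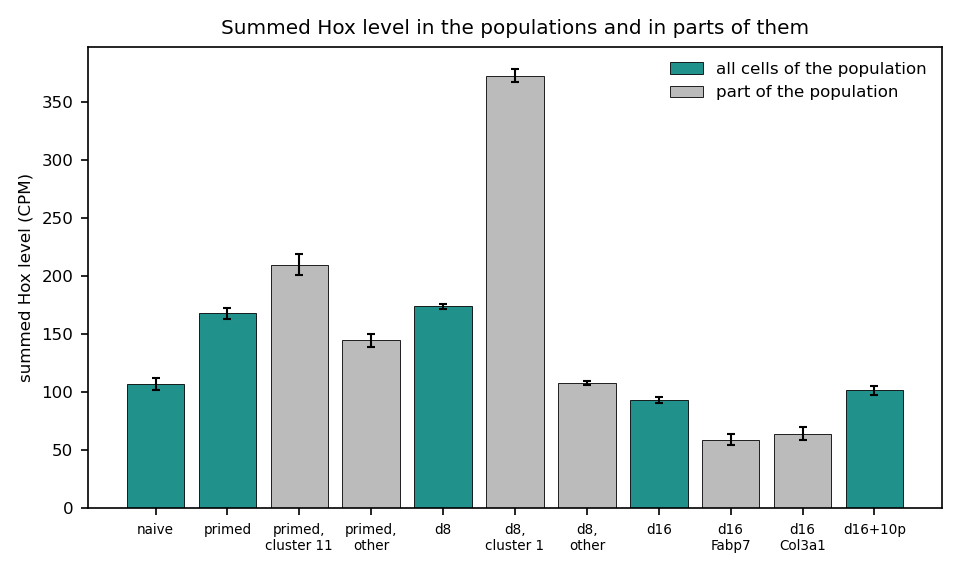
Summed level of the 39 Hox genes (CPM, linear axis from 0) in each population and in parts of it, with bars for the level and error bars for the exact 95% Poisson interval. The 2146 d8 cells of cluster 1 stood at 373 CPM and the other d8 cells at 108, next to the naive level of 107.

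The 4 gene clusters did not move alike. Hoxa genes summed to 51.6 CPM in primed cells, the highest, and to 21.5 to 29.8 CPM in the other 4 populations. Hoxc genes summed to 61.7 CPM at d8, the highest, and to 26.7 (d16) to 37.1 CPM (naive and primed) elsewhere. Hoxb genes were high in both the primed (67.5 CPM) and d8 cells (72.7 CPM), against 32.4 in naive, 40.2 in d16+10p and 35.8 CPM in d16 cells. Hoxd genes made up the smallest part everywhere, at 5.89 to 11.8 CPM.

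Split by paralog number, the low numbers stood highest in the primed cells and the middle numbers at d8, the latter through the cells of 1 cluster, cluster 1. Paralogs 1 and 2 (5 genes) summed to 59.5 CPM in primed cells and to 17.6 (d16+10p) to 26.8 CPM (d8) in the others, and made up 35.4% of the Hox reads of primed cells against 15.4% of those of d8 cells. Paralogs 4 to 8 (15 genes) summed to 77.3 CPM at d8, 47.3 in primed cells and 29.5 (d16) to 34.5 CPM (naive) elsewhere, and the d8 cells outside cluster 1 stood at 37.7 CPM (36.6 to 38.7), below the primed level. Paralogs 9 and 10 (7 genes) summed to 42.4 CPM at d8 and to 20.8 (d16) to 33.5 CPM (primed) in the others, with 16.6 CPM in the d8 cells outside cluster 1. Paralogs 11 to 13 (9 genes) were highest in naive cells, at 21.7 CPM against 12.7 (d16) to 16.9 CPM (d16+10p). The intervals of the primed and of the other populations did not overlap for paralogs 1 and 2, nor did those of d8 and the others for paralogs 4 to 8 or 9 and 10.

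**Figure D2:**
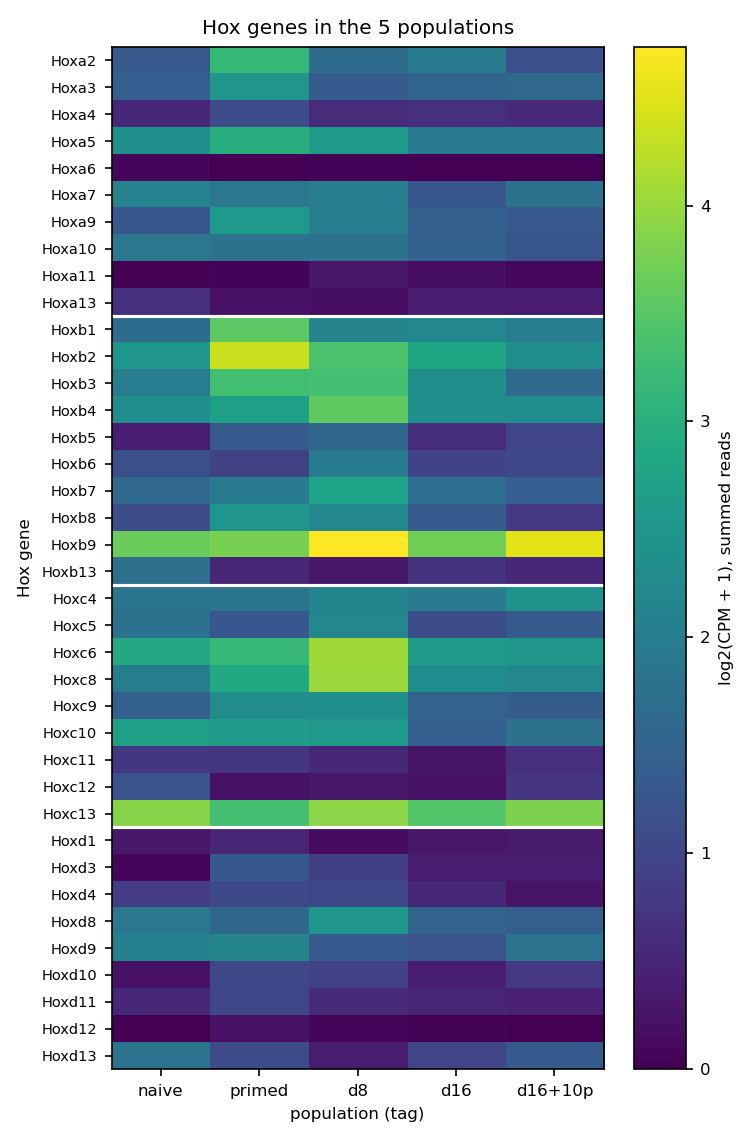
Level of Hox genes (rows, by gene cluster and number) in the 5 populations (columns), as log2(CPM + 1) of summed reads. Hoxb1 and Hoxb2 are brightest in the primed cells, and Hoxb9, Hoxc6 and Hoxc8 are bright at d8.

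Primed cells were compared with naive cells to see which Hox genes differ between them. State, line and medium differed together here, so their parts cannot be told apart. The summed level was higher in the primed cells by 0.64 on the log2 scale (0.57 to 0.73), where all log2 ratios are of CPM + 1 and intervals are of the ratio without the added 1, so that the ratio of a low gene can fall outside its interval. Of the 25 Hox genes with at least 50 reads over both populations, 7 were at least 2-fold higher, against 3.66% of all 17103 genes tested. These were Hoxa2, Hoxa3, Hoxa9, Hoxb1, Hoxb2, Hoxb3 and Hoxb8. One gene, Hoxb13, was at least 2-fold lower, against 4.93% of all genes. The median log2 ratio was 0.30 over the Hox genes and 0.10 over all genes.

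The genes furthest apart were the anterior ones. Hoxb2, which patterns the hindbrain, stood at 19.6 CPM in primed and 4.58 in naive cells, and at 9.58, 5.98 and 4.0 CPM in the 3 populations that followed AICAR, from d8 to d16+10p. Part of its sequence is shared with the antisense transcript Hoxb3os, so its levels are uncertain here and below. Hoxb1, needed for the identity of a hindbrain segment, stood at 10.7 CPM in primed and 2.20 in naive cells, and then at 3.32, 3.65 and 2.97 CPM. Hoxa2, which acts in hindbrain and neural crest, stood at 7.89 CPM in primed and 1.51 in naive cells, and then at 2.20, 2.90 and 1.22 CPM. All 3 were highest in the primed population, with log2 ratios to naive of 1.88 (1.75 to 2.45), 1.87 (1.79 to 2.81) and 1.83 (1.80 to 3.03). The posterior gene Hoxb13 stood at 2.38 CPM in naive cells and at 0.239 to 0.609 CPM in the other 4.

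In the primed core the same difference was larger. Its summed level was 210 CPM (201 to 219), against 145 (139 to 151) in the other primed cells, and lay 0.96 (0.88 to 1.06) above the naive level on the log2 scale. Of 24 genes tested, 8 were at least 2-fold higher (background 3.08% of 15212 genes). Of these, Hoxb1 reached 21.3 CPM (log2 ratio 2.80, 2.77 to 3.81), Hoxb2 31.1 and Hoxa2 13.4 CPM. Hoxc13, a gene of the posterior end and of hair and nail, was the 1 gene at least 2-fold lower (background 7.97%), at 3.54 CPM in the primed core against 13.7 CPM in naive cells (log2 ratio −1.69, −2.51 to −1.43).

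The d8 population was compared with the primed one, the state the cells started from. The summed levels had a log2 ratio of 0.05 (0.01 to 0.10), whose sign depended on the cells taken. It was −0.27 against the primed core, −0.59 with the cells of cluster 1 left out of both populations and −0.078 without cells with a Y-linked read. Of 34 genes tested, Hoxb6 and Hoxc8 were at least 2-fold higher (background 2.32% of 22480 genes), and Hoxa2, Hoxa3 and Hoxb1 at least 2-fold lower (background 2.14%). With the cells of cluster 1 left out, none of 33 was at least 2-fold higher (background 1.5%) and Hoxa2, Hoxa3, Hoxb1, Hoxb2 and Hoxd9 were lower (background 1.89%). Cluster 1 was the cluster with the highest summed Hox level, so leaving it out lowers the d8 level by construction. In all cells the median was −0.04 over the Hox genes and −0.02 over all genes. Hoxc8, which acts in trunk vertebrae and motor neurons, stood at 15.3 CPM at d8 and 6.31 in primed cells, against 3.02 in naive, 3.55 in d16+10p and 3.91 CPM in d16 cells, and its d8 to primed log2 ratio was 1.16 (1.06 to 1.51). Hoxb9, a gene of the thoracic and lumbar trunk, stood at 25.6 CPM at d8 and 22.3 at d16+10p, against 11.5 in naive, 12.7 in primed and 12.1 CPM in d16 cells. Hoxc6, which acts at forelimb and thoracic levels, stood at 15.8 CPM at d8 and 7.86 in primed cells, and at 4.69 to 6.20 CPM in the others.

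Most of the d8 Hox reads came from 1 cluster of cells, which was picked because its summed Hox level was the highest of the 17 clusters. Cluster 1 held 2146 of the 9627 d8 cells (22.3%) and 53.4% of the d8 Hox reads. Those cells stood at 373 CPM (367 to 379), and the other 7481 d8 cells at 108 (106 to 110). Against the primed core, the other d8 cells were lower by 0.95 on the log2 scale (−1.02 to −0.89), where the ratio of the whole d8 population to the whole primed one was slightly positive. This comparison left out the d8 cells with the highest Hox level and primed cells with a lower one (145 CPM, against 210 in the core). Part of the gap, and of the counts that follow, thus comes from the choice of cells. Of 32 genes tested, 13 were then at least 2-fold lower (background 4.53% of 21155 genes), with Hoxb1 at 3.60 against 21.3 CPM, Hoxb2 at 6.89 against 31.1 and Hoxa2 at 2.21 against 13.4 CPM. Hoxc13 was the 1 gene at least 2-fold higher (background 9.62%), at 17.3 CPM against 3.54.

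From d8 to d16 the summed Hox level was lower by 0.89 on the log2 scale (−0.94 to −0.86). None of 35 genes tested was at least 2-fold higher, against 7.46% of 23253 genes, and 7 were at least 2-fold lower, against 2.41%. These were Hoxb4, Hoxb7, Hoxb9, Hoxc5, Hoxc6, Hoxc8 and Hoxc10, all of paralog numbers 4 to 10. Hoxc8 had the lowest ratio, −1.73 (−2.18 to −1.77), followed by Hoxc6 at −1.50 (−1.86 to −1.49). The median was −0.54 over the Hox genes and 0.05 over all genes. Without the cells of cluster 1, which were 53 of the d16 cells, the summed levels were 89.5 CPM at d16 and 108 at d8, a log2 ratio of −0.27, and of 33 genes tested Hoxc6 alone remained at least 2-fold lower (background 2.03%).

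The expanded d16+10p cells were compared with naive mESCs, the state they were meant to reach. The naive mESCs were of another line, so differences by line and by history cannot be told apart. The summed levels differed by −0.08 on the log2 scale (−0.16 to 0.01). Of 24 genes tested none was at least 2-fold higher (background 0.898% of 16807 genes) and Hoxb13 was at least 2-fold lower (background 0.785%), at 0.457 against 2.38 CPM. The median was −0.25 over the Hox genes and −0.01 over all genes. Hoxb9 was the highest of the Hox genes in d16+10p cells per kilobase of exon, at 8.65 CPM per kb against 5.25 for Hoxc13. Its level was 22.3 CPM (20.5 to 24.1) in 26.3% of cells, against 11.5 CPM (9.99 to 13.3) in 15.6% of naive cells, a gap that narrowed after thinning to 8.41% against 6.0% of cells.

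The same gap stood out among the cells of cluster 5 alone, which held 860 d16+10p and 521 naive cells at median depths of 23011 and 23847 reads. There Hoxb9 stood at 24.0 CPM (22.0 to 26.2) in the expanded d16+10p and 11 CPM (9.28 to 13) in naive cells, with a read in 30.3% and 17.1% of them. Hoxc13 intervals overlapped in these cells, at 13.2 CPM (11.7 to 14.9) and 13.3 CPM (11.4 to 15.5). Cluster 6, where 1133 of 1239 cells were of d16, was led by the germ cell gene Dazl. All 6 naive markers were also at least 2-fold higher there than in the other cells. Hoxb9 stood at 20.3 CPM (18.2 to 22.5) in its d16 cells. Hoxb9 was thus near the d16+10p level in d16 cells of cluster 6. Hoxc10, with Hoxb9 the other gene at least 2-fold apart within cluster 5, stood at 6.31 CPM in the naive and 2.01 CPM in the expanded cells. That was 1 higher and 1 lower of 20 genes tested, against 1.24% and 1.33% of all genes.

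Within d16, cells were also picked by Fabp7, a fatty acid binding protein of neural progenitors, and by Col3a1, a fibrillar collagen, at 500 CPM or more. This gave 779 Fabp7 cells, of which 95.0% lay in cluster 2, and 784 Col3a1 cells, of which 89.0% lay in cluster 7. Another 45 cells passed both limits and 2707 passed neither, and 657 and 377 d16 cells lay within 2-fold of the Fabp7 and Col3a1 limits. Both sets had low Hox levels, 59.0 CPM (54.2 to 64.1) for Fabp7 and 64.3 (58.9 to 70.1) for Col3a1 cells, against 108 (105 to 112) for the d16 cells that passed neither. Their log2 ratio of 0.12 had an interval of −0.05 to 0.30, so that no difference was detectable at this depth.

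Only 9 Hox genes had 50 reads over both sets. None was at least 2-fold higher in Col3a1 cells (background 4.92% of 14203 genes), and Hoxa2 was at least 2-fold lower (background 7.23%), at 1.75 CPM against 4.78. That call rested on 59 reads (log2 interval −2.43 to −0.56) and was lost with limits of 250 or 1000 CPM, with 10 CPM added, when thinned and without the 1% of cells with the highest Hox share. The median was 0.11 over the Hox genes and −0.04 over all genes. Hoxb9 stood at 7.33 CPM (5.71 to 9.28) in Fabp7 and 8.00 CPM (6.16 to 10.2) in Col3a1 cells, and Hoxb2 at 7.55 (5.89 to 9.52) and 5.62 CPM (4.1 to 7.52), with overlapping intervals for both genes. Of the other position genes, Aldh1a2, which makes retinoic acid, stood at 61.8 CPM in Col3a1 and 2.34 in Fabp7 cells, the retinoic acid receptor Rarb at 121 and 12.9, and Tbx18, a factor of mesoderm-derived mesenchyme, at 68.3 and 2.02 CPM.

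**Figure D3:**
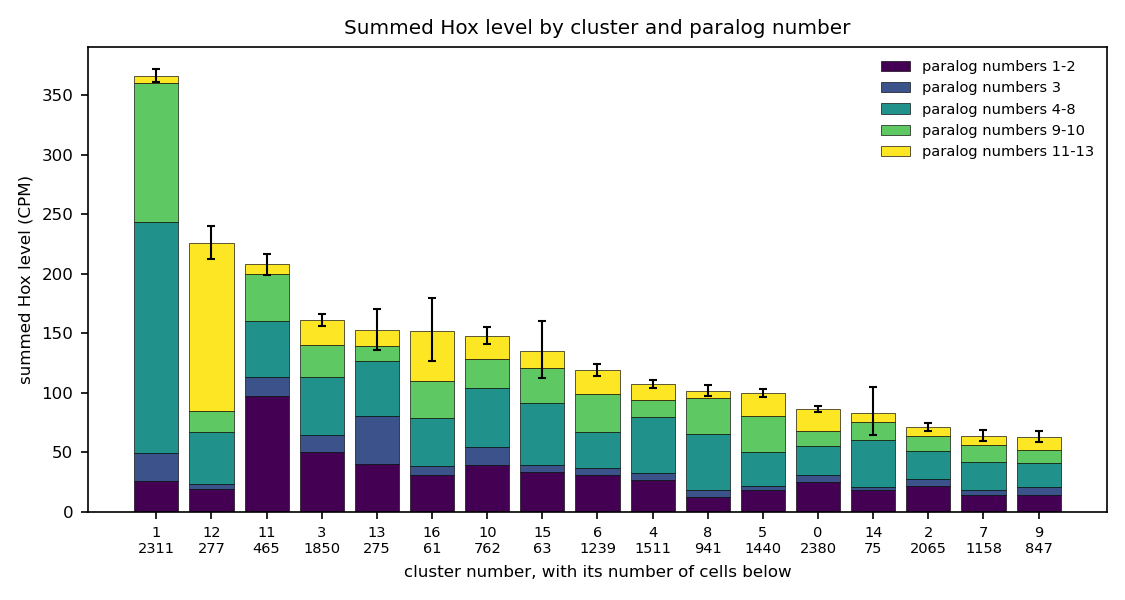
Summed Hox level (CPM, linear axis from 0) in each of the 17 clusters, ordered from high to low and split by paralog number, with the exact 95% Poisson interval of the sum and the number of cells below. Cluster 1 reaches 367 CPM and is made mostly of paralogs 4 to 10, cluster 12 is mostly paralogs 11 to 13 and cluster 11 has the largest part of paralogs 1 and 2.

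Between clusters the Hox level varied more than between populations, from 63.0 CPM (58.6 to 67.6) in cluster 9 to 367 CPM (361 to 372) in cluster 1. Cluster 12 (226 CPM, 212 to 240) and cluster 11 (208 CPM, 199 to 217) followed, and the intervals of those 2 overlapped. The lowest were cluster 9, endoderm-like by all 4 of its markers and with Otx2, a head gene, at 226 CPM, and fibroblast-like cluster 7 at 63.6 CPM (59.2 to 68.3). Fabp7-led cluster 2 stood at 71.1 CPM (67.9 to 74.5).

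Cluster 1 (2311 cells) was led by Lox, Ccl2, Crabp1 and Prl2c2, and had a trunk code. Paralogs 4 to 8 made up 52.9% of its Hox reads, paralogs 9 and 10 32.0%, and paralogs 11 to 13 1.62%. Hoxb9 stood at 77.5 CPM (75.0 to 80.1), and no other cluster passed 20.3 CPM. A Hoxb9 read was found in 43.1% of its cells at a median depth of 17443 reads, against 15.4% in macrophage-like cluster 8 at 17411 reads (24.5% and 6.14% after thinning). Hoxc8 stood at 47.8 CPM in 33.8% of cells and at 9.23 CPM in cluster 8, the next large cluster. Of the d8 reads, 77.2% of Hoxb9 and 79.1% of Hoxc8 lay in cluster 1.

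Other genes of the middle of the Hox clusters followed in cluster 1. Hoxc6 stood at 31.8 CPM, the neck and thorax gene Hoxb4 at 27.1, Hoxb3 at 18.6, Hoxb2 at 17.3, Hoxb7 at 15.5, Hoxd8 at 14.0 and Hoxc10, which acts at the hindlimb level, at 12.9 CPM. Per kilobase of exon the order differed, with Hoxb7 (10.0 CPM per kb) and Hoxc10 (6.75) above Hoxb3 and Hoxb2. The ends of the clusters were low, with Hoxb1 at 2.39 CPM against 21.1 in cluster 11, Hoxc13 at 4.1 CPM against 137 in cluster 12, and the 3 paralogs 11 together at 1.28 CPM. Within the d8 population 21 of 32 genes tested were at least 2-fold higher in cluster 1 than elsewhere (background 4.98% of 21866 genes), and 2 were at least 2-fold lower (background 7.79%), Hoxc13 among them. Cluster 1 was picked for its summed Hox level, so an excess of higher Hox genes follows in part from that choice. The counts show which Hox genes made up the level and are no separate evidence for it. The median was 1.46 over the Hox genes and −0.22 over all genes. Cells of the other populations that fell in cluster 1 were few, 20 to 70 each, and they too had high levels, 295 CPM for primed, 268 for naive, 259 for d16 and 213 for d16+10p cells.

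In cluster 1, Hoxb9 and Hoxc8 were often read in the same cell. Hoxb9 was found in 54.8% of the 781 cells with a Hoxc8 read and in 37.2% of those without, but the former were deeper, with a median of 25653 against 13331 reads. It was also found in 52.2% of the 134 cells with a Hoxc13 read and in 42.6% of those without, at 28112 against 16744 reads. Depth moved with both pairs, and its part in them was not tested.

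Position genes beyond the Hox genes moved with cluster 1, in a comparison where 4.98% of all genes were at least 2-fold higher and 7.79% lower. Of the 8 limb and body position genes, 5 were at least 2-fold higher in d8 cells of cluster 1 than in other d8 cells, among them Prrx1 (665 against 48.7 CPM), a factor of limb and body wall mesenchyme, and Tbx15 (44.7 against 5.06). Tbx5, the forelimb gene, stood at 2.77 against 0.481 CPM, and Tbx4, the hindlimb gene, was lower at 1.16 against 4.50. Emx2 (68.1 against 7.97 CPM) and En1 (32.3 against 3.8) of the anterior neural list were also higher, and Otx2 was lower at 9.26 against 34.2 CPM. The primitive streak and tail bud gene T was lower at 16.9 against 92.8 CPM.

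Some fibroblast and smooth muscle markers and Y-linked genes were also higher in cluster 1. Of the 6 fibroblast markers, Dcn (596 CPM), Lum (16.8) and Pdgfra (47.1) were at least 2-fold above the other cells, while Col1a1 (470), Col1a2 (604) and Col3a1 (152) were not, and the list summed to 1886 CPM against 12192 in fibroblast-like cluster 7 and 376 in cluster 0. Of the 5 smooth muscle markers, Acta2 and Tagln were at least 2-fold higher, and that list summed to 1400 CPM against 624 in the other cells. The pluripotency gene Pou5f1 stood at 28.6 CPM in cluster 1 and 396 in cluster 11. Y-linked Ddx3y stood at 97.6 CPM and Eif2s3y at 21.5 in cluster 1, against 3.55 and 2.21 in cluster 11. A read of any of 4 Y-linked genes was found in 47.5% of the d8 cells of cluster 1 and in 21.4% of the other d8 cells. Among all cells of cluster 1 the Hox level was 361 CPM (354 to 368) in those with a Y-linked read and 374 (366 to 383) in those without, whose median depths were 22455 and 13242 reads. MEF feeders were in these cultures, and their part in cluster 1 was not tested.

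Hoxb9 and Hoxc8 were also read at a low level in other d8 cells. In macrophage-like cluster 8, Hoxb9 of d8 cells stood at 23.5% of its cluster 1 level and Hoxc8 at 19.7%, beside 18.6% for Lox and 20.7% for Ccl2. In keratin-rich cluster 0 the shares were 6.81%, 4.58%, 3.92% and 3.70%. Hoxc6 differed from these, at 25.8% in cluster 8 but 56.6% in cluster 4, which was led by the muscle actin genes Actc1 and Acta2 and where Lox stood at 4.57%. Hoxb2 and Hoxb3 differed too, at 82.0% and 54.6% in cluster 3 and at 108% and 64.0% in cluster 10. Hoxb4 stood at 36.8% in cluster 8 and 25.2% in cluster 4.

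Cluster 11 (465 cells, 430 of them primed), primed-like by its markers, had the anterior code. Paralogs 1 and 2 made up 46.9% of its Hox reads. Hoxb2 stood at 30.7 CPM (27.4 to 34.3), Hoxb1 at 21.1 CPM (18.4 to 24.1) in 23.2% of cells and Hoxa2 at 13.5 CPM (11.4 to 16.0), each the highest of all clusters. In cluster 8 a Hoxb1 read was found in 3.51% of cells. The next cluster for Hoxb1 was cluster 3, led by Lefty1 and Lefty2, at 7.39 CPM (6.36 to 8.54). Within cluster 3 the summed Hox level was 211 CPM (199 to 224) in the 382 primed and 146 (140 to 151) in the 1307 d8 cells.

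Genes of the posterior epiblast and tail bud stood high in the same cells. Of the 7 such genes tested between the primed core and naive cells, 5 were at least 2-fold higher (background 3.08% of all genes) and 1 lower (background 7.97%). The caudal factor Cdx2, an activator of Hox genes, stood at 8.80 against 0.870 CPM, Fgf8 at 62.5 against 6.78, T at 133 against 30.4, Nkx1-2, a gene of the axial progenitor zone, at 38.8 against 8.52, and Evx1, of the primitive streak, at 4.75 against 0.754 CPM. Cdx1 was the exception, at 1.72 against 27.1 CPM. The median of that list was 2.06, against −0.07 over all 15212 genes.

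Noncoding RNAs of the Hox clusters followed their neighbours, though overlapping transcripts cannot be told apart here. Of the 5 tested between the primed core and naive cells, 4 were at least 2-fold higher, namely Hoxb3os (21 against 3.36 CPM), Hotairm1 (16.9 against 6.15), Hoxaas3 (8.19 against 0.928) and Hoxaas2 (7.58 against 1.04). Halr1, from the Hoxa side, was lower at 2.83 against 6.73 CPM. Of all genes in this comparison, 3.08% were at least 2-fold higher and 7.97% lower. In cluster 10 Halr1 stood at 30.2 CPM, next to the highest Hoxa5 level of any cluster.

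Cluster 12 (277 cells, 192 of d8, 55 of d16 and 25 primed) had 1 posterior gene. It was led by the epithelial genes Krt15, Krt19 and Nectin4, and 62.6% of its Hox reads were of paralogs 11 to 13. Hoxc13 stood at 137 CPM (127 to 148) in 54.2% of cells (34.2% after thinning), and at 3.84 to 23.9 CPM in the other 16 clusters. In macrophage-like cluster 8 a Hoxc13 read was found in 6.48% of cells. By population its level in cluster 12 was 161 CPM (148 to 175) at d8, against 50.4 (30.3 to 78.6) in primed and 44.6 (30.5 to 62.9) in d16 cells, with no overlap between d8 and the others. A read was found in 67.2% of the d8, 40.0% of the primed and 12.7% of the d16 cells.

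The neighbours of Hoxc13 were low in cluster 12. Hoxc12 had no read there, which allows up to 3 reads, Hoxc11 had 2 reads and Hoxc10 stood at 2.61 CPM against 12.9 in cluster 1. Hoxa13, Hoxb13 and Hoxd13 together with Hoxc13 made 139 CPM, nearly all of it Hoxc13. Hoxd10 stood at 5.44 CPM, its highest of any cluster. The hindlimb genes Tbx4 (49.6 CPM) and Pitx1 (29.4 CPM) stood at 3.44 and 0.977 CPM in cluster 0, the other keratin-rich cluster, and the basal keratin Krt5 at 48.6 CPM. When the cells were grouped more coarsely, into 12 clusters, these cells merged with others and the highest Hoxc13 level was 21 CPM, and with 19 clusters it was 155 CPM.

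**Figure D4:**
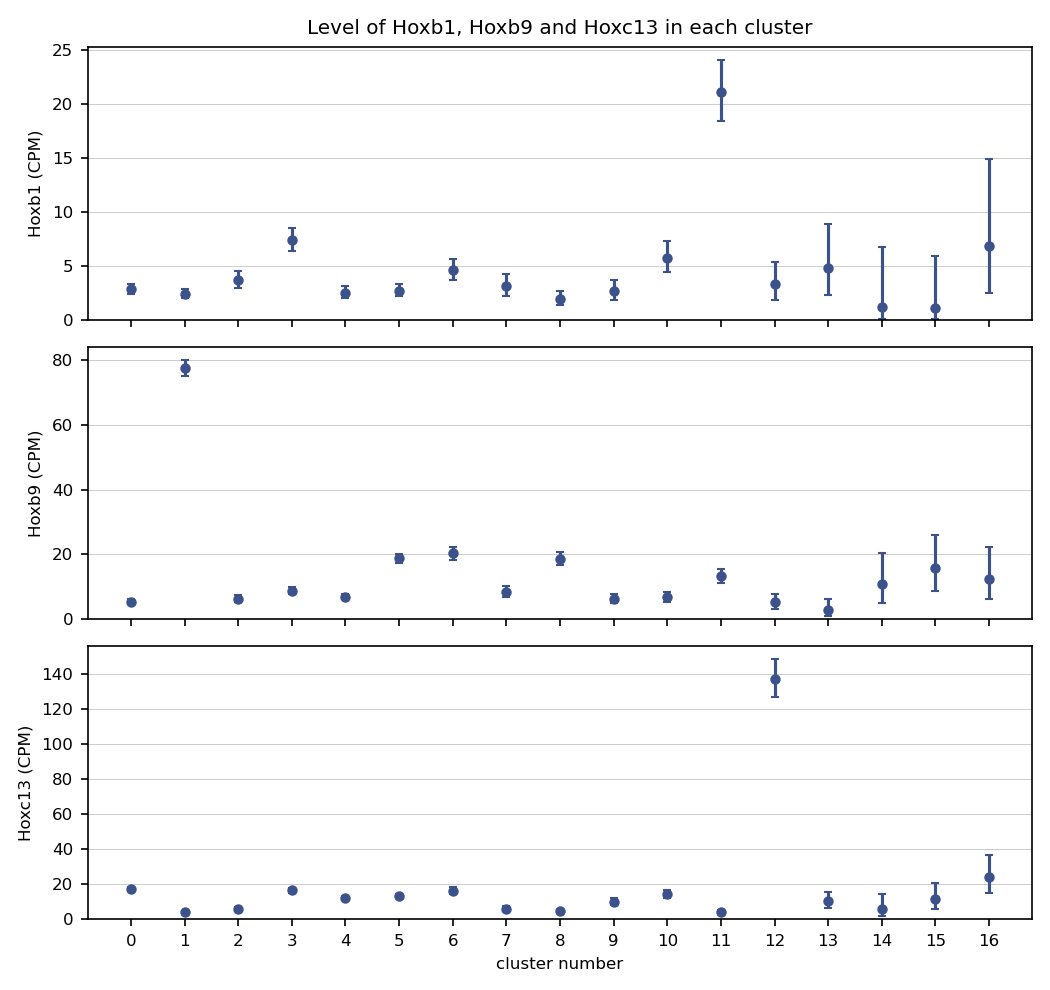
Level (CPM, linear axes from 0) of an anterior (Hoxb1), a trunk (Hoxb9) and a posterior (Hoxc13) gene in each of the 17 clusters, with points for the level and bars for the exact 95% Poisson interval. Hoxb1 peaks in cluster 11 at 21.1 CPM, Hoxb9 in cluster 1 at 77.5 CPM and Hoxc13 in cluster 12 at 137 CPM.

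Further clusters had codes of their own at lower depth. Neuron-like cluster 13 (275 cells, median 5573 reads) had Hoxb3 at 38.0 CPM (30.1 to 47.3) and Hoxb2 at 22.6 CPM (16.6 to 30.0), both hindbrain genes, and Hoxb9 at 2.88 CPM. The Hox cofactor Meis2 stood at 363 CPM in it. In cluster 10 (762 cells), which was led by T (1042 CPM) and Shh (709 CPM) but lacked the notochord factor Noto (1 read in these cells), Hoxa5 stood at 15.1 CPM (12.9 to 17.5), Hoxb2 at 18.2, Hoxb3 at 11.7 and Hoxa9 at 9.27 CPM. Hoxb3 shared much of its sequence with Hoxb3os and Hoxb2 a smaller part, so the levels of both are uncertain.

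**Figure D5:**
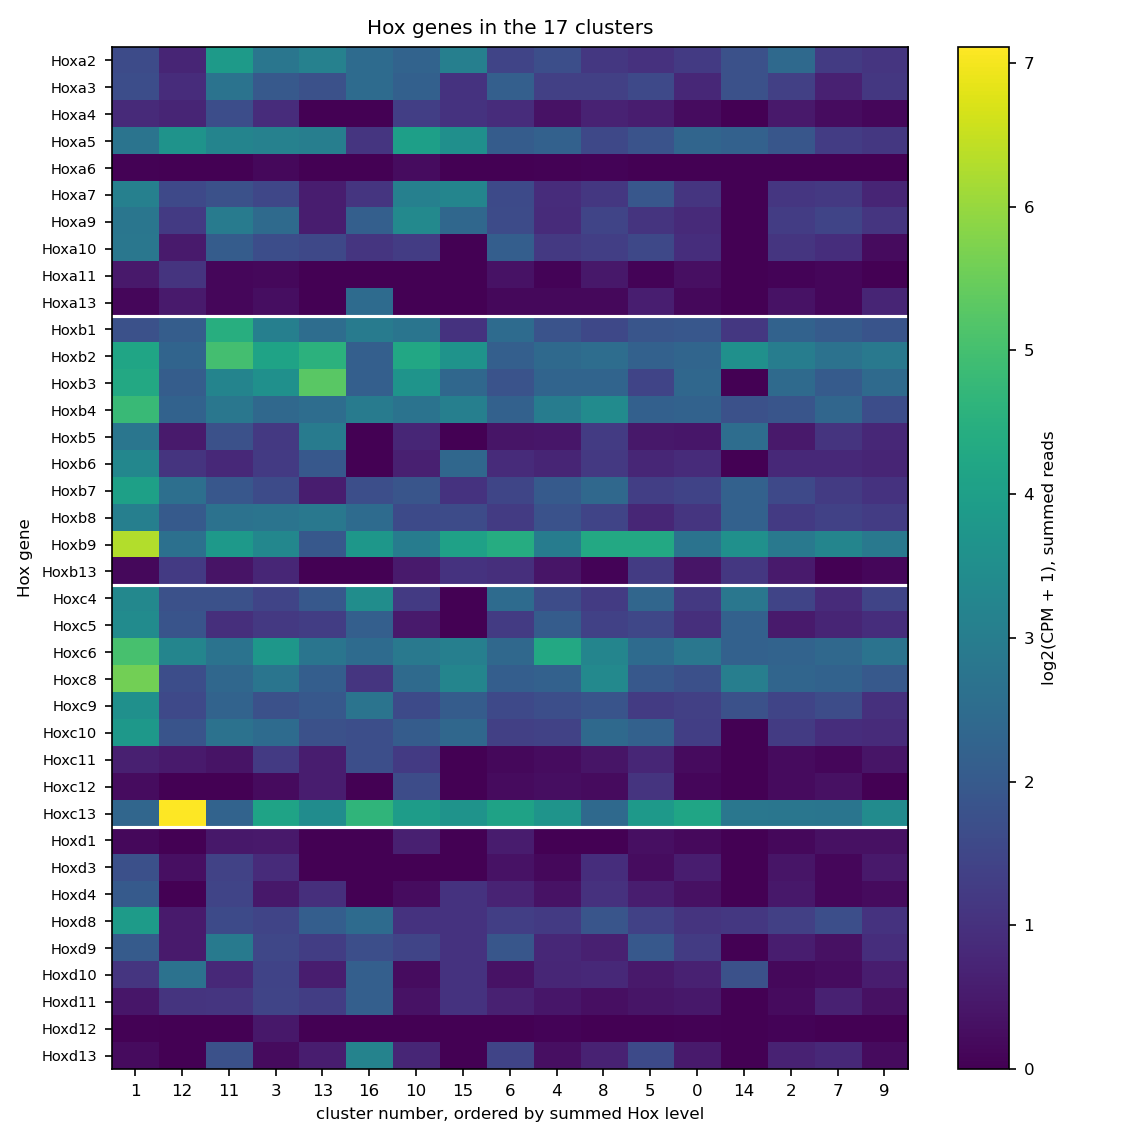
Level of Hox genes (rows) in the 17 clusters (columns, ordered by summed Hox level), as log2(CPM + 1) of summed reads. In cluster 1 the bright cells run from Hoxb2 to Hoxb9 and from Hoxc4 to Hoxc10, with Hoxb13 between them dark and Hoxd8 also bright. They form a single row for Hoxc13 in cluster 12, and paralogs 1 and 2 in cluster 11.

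Genes tied to Hox function were compared by list in the same way, with the medians to be read against those of all genes given above (0.10, −0.02, 0.05, −0.01 and −0.04 for the 5 comparisons) and the counts against the percentages of all genes given there. Those were 7.46% higher and 2.41% lower at d16 against d8, and between Col3a1 and Fabp7 cells 4.92% higher and 7.23% lower. Of the 9 cofactor genes of the Meis, Pbx and Pknox families, which bind DNA together with Hox proteins, 3, with Meis3 (17.2 against 7.42 CPM) and Pknox2 (9.69 against 3.65) among them, were at least 2-fold higher in primed than in naive cells, with a list median of 0.84. In the primed core Meis3 and Pbx3 were (median 0.83). None of the 9 was 2-fold apart between d8 and primed cells (median −0.23) or between d16+10p and naive cells (median 0.02). From d8 to d16 1 of the 9 was higher, with a median of 0.35, and Pbx4 alone was lower in Col3a1 than in Fabp7 cells, with a median of −0.23.

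Retinoic acid switches on the anterior Hox genes, and 12 genes that make, bind, break down or sense it were tested. Rarb, Crabp1, Crabp2 and Stra6 were at least 2-fold higher in primed than in naive cells (median 0.45), and Crabp1 was higher and Aldh1a2 and Rarb lower at d8 than in primed cells (median −0.38). In the primed core, by contrast, Crabp2 alone of 11 was higher than in naive cells and Aldh1a2 and Cyp26b1 were lower, with a median of −0.13 against −0.07 over all genes. The binding protein gene Crabp1 stood at 449 CPM at d8, above its 81.6 CPM in naive and 183 CPM in primed cells. From d8 to d16, 6 of the 12 were higher and 2 lower (median 0.70), and between Col3a1 and Fabp7 cells 8 were higher and none lower (median 1.43). Of the 11 tested between d16+10p and naive cells, 1 was higher (median 0.01).

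Most of the tail bud genes tested were higher in primed than in naive cells. Of 7 tested against naive cells, Cdx2, T, Fgf8 and Evx1 were at least 2-fold higher in all primed cells and Cdx1 lower (median 1.09). Of 9 tested at d8 against primed cells, Cdx2, Nkx1-2, Fgf8 and Evx1 were lower (median −0.60), with Cdx2 at 0.278 against 4.52 CPM and Nkx1-2 at 1.44 against 16.6. From d8 to d16, Cdx1 and Wnt3a were higher and T and Fgf8 lower, of 9 (median 0.16). Cdx1 stood at 27.1 CPM in naive cells, 18.8 at d16 and 9.80 at d16+10p, against 2.40 in primed and 1.25 CPM in d8 cells. It was the 1 gene of 5 that was lower at d16+10p than in naive cells (median −0.45), and none of 3 was 2-fold apart between Col3a1 and Fabp7 cells (median −0.69).

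Genes of the head and hindbrain, where Hox genes are off or start, gave a mixed picture. Between primed and naive cells Otx2 was at least 2-fold higher and Hesx1 lower, of 11 (median 0.40). Between d8 and primed cells Emx2 and En1 were higher and En2 and Gbx2 lower, of 12 (median −0.24). From d8 to d16, Egr2, which is used in hindbrain and glia, stood at 27.9 and 108 CPM and Gbx2 at 1.66 and 10.5 CPM, while Emx2 was lower (median 0.18). None of 10 was 2-fold apart between d16+10p and naive cells (median −0.21), and in Col3a1 cells Emx2 was higher and Otx2 and Gbx2 lower than in Fabp7 cells, of 6 (median −0.58).

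Of the limb and body position genes, none of 7 was 2-fold apart between primed and naive cells (median 0.23) or between d16+10p and naive cells (median −0.06), while in the primed core Tbx18 was lower, of 4 (median −0.57). Of 8, Tbx15, Prrx1 and Shox2 were at least 2-fold higher at d8 than in primed cells (median 0.69) and lower again at d16, where Pitx1 and Lmx1b were higher (median −0.49). In Col3a1 cells Tbx18 and Prrx1 were higher and Lmx1b lower than in Fabp7 cells, of 5 (median 0.46). Of the noncoding RNAs of the Hox clusters, Hoxaas2, Hoxaas3 and Hoxb3os were higher in all primed than in naive cells, of 5 (median 1.38), and lower at d8 than in primed cells, of 9 (median −0.57). Halr1 alone was higher at d16 than at d8, of 9 (median −0.29), and at d16+10p than in naive cells, of 3 (median −0.25). Between Col3a1 and Fabp7 cells Halr1 was higher and Hoxaas2 lower, of 4 (median 0.24). Of the 4 Y-linked genes, Ddx3y and Eif2s3y were at least 2-fold lower in primed than in naive cells, higher at d8 than in primed cells and lower at d16 than at d8.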

How the data were processed

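The 5 populations were tagged with biotin antibodies to CD9 and CD63 and TotalSeq streptavidin, and pooled in a BD Rhapsody run. The deposited values are raw read counts per gene symbol and cell, for which the authors trimmed reads with cutadapt 2.10, mapped them with Bowtie2 2.3.4.1 to Ensembl cDNA and ncRNA of GRCm38, and summed reads of the same symbol. No collapsing by molecular identifier and no strand setting is described, so PCR copies are counted and antisense partners cannot be told apart. The authors removed barcodes below the inflection of the read curve and cells with ambiguous tags. No further doublet caller was run, and doublets within a tag may remain. Each cell's population was read from the tag in its column name. By the study's methods 500 naive and 500 primed cells were loaded, beside 801 and 1826 barcodes in the table, as were 9000 cells each of d8 (9627 barcodes) and d16 (4315), and 1000 of d16+10p (1151). No filter on cells was applied.

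Reads were summed over the cells of a group and divided by the group's total to give CPM, with exact Poisson 95% intervals. Shares of cells have Clopper-Pearson intervals in the tables. Ratios are log2 of CPM + 1, with exact binomial intervals of the ratio of reads. A gene was tested with 50 or more reads over both groups and called at 2-fold. Since cells are not replicates and each population was 1 sample, no p-value was computed. Shares were recomputed after thinning each cell to 5000 reads. Cells were clustered from 2000 variable genes without the Hox genes, on 56 principal components and 50 neighbours, with Leiden clustering at resolution 0.8 (scikit-learn 1.9.0, leidenalg 0.10.2, igraph 0.11.9, Python 3.11.15). TMM factors came from edgeR 4.0.16 and were used only as an alternative scaling. Levels of different genes were ranked only where given per kilobase of exon (GENCODE M21). Other levels, and the sums over genes, are CPM without a correction for length.

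On simulated Poisson counts for d8 against primed (22480 genes) 95.6% of intervals held the true ratio and 68% of 4-fold changes were called. For d16+10p against naive (16807 genes) 95.5% and 94% did. The intervals assume that same Poisson model, so coverage near 95% was fixed in advance. PCR copies and reads clumped in single cells were not simulated, so coverage for the real reads is unknown. The Hox genes, the gene lists, the gates and the rule for named genes (members with a read in the group described, and of each other list the measured genes, those 2-fold apart first) were chosen with earlier results of these data known. Alternatives were the scaling, the added CPM, thinning, the filter on reads, the cells kept and the cluster resolution, and the sets that leave out cluster 1, cells with Y-linked reads or the other primed cells were added after seeing the data. Results for some genes and sequences are not reported here, though their reads are in the sums and counts.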

Additional observations from a re-analysis of the deposited data

How the results depend on the processing

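Between the primed and naive populations the summed Hox level stayed higher in primed cells throughout, at a log2 ratio of 0.43 as the mean of CPM per cell, 0.56 with TMM factors, 0.55 thinned, 0.49 without the 1% of cells with the highest Hox share, 0.50 without cells with a Y-linked read and 0.96 with the primed core. The 7 genes at least 2-fold higher of 25 tested became 1 with 10 CPM added (0.55% of all genes) and 4 of 12 when thinned (5.19% of all genes). The 1 lower became 0 with 10 CPM added (1.64% of all genes), when thinned (4.0%) and without cells with a Y-linked read (3.18%). Between d8 and primed the ratio of 0.05 became 0.12 as the mean per cell and with TMM, and 0.17 without the top 1% of cells. It turned to −0.59 without cluster 1, −0.078 without cells with a Y-linked read and −0.27 against the primed core. The 2 genes higher became 0 with 10 CPM added (0.85% of all genes), without cluster 1 (1.5%) and without cells with a Y-linked read (1.8%). The count became 1 with cells limited by gene number (2.53%), 4 without the top 1% (2.29%) and 5 of 32 against the primed core (10.4%). The 3 lower became 0 with 10 CPM added (0.53% of all genes), 5 of 33 without cluster 1 (1.89%) and 7 of 32 against the primed core (5.13%). From d8 to d16 the ratio was −0.98 as the mean per cell, −0.99 with TMM, −0.83 with 10 CPM added, −0.95 without the top 1%, −0.27 without cluster 1 and −0.77 without cells with a Y-linked read. The 7 genes lower became 11 with TMM (2.99% of all genes) and 0 with 10 CPM added (0.85%). They became 1 without cluster 1 (2.03%) and 3 without cells with a Y-linked read (2.35%). Between d16+10p and naive the ratio was −0.17 without cells with a Y-linked read. The 0 genes higher became 1 as the mean per cell (1.09% of all genes), without cells with a Y-linked read (Hoxc4, 1.78%) and within cluster 5 (Hoxb9, 1.24%). The 1 lower became 0 with 10 CPM added (0.14% of all genes), thinned (0.78%) and with cells limited by gene number (0.85%). It was also 0 without cells with a Y-linked read (1.45%), and 2 were lower without the top 1% (0.80%). Between Col3a1 and Fabp7 cells the ratio was −0.067 without cells with a Y-linked read. The 1 gene lower became 0 with 10 CPM added (2.80% of all genes), thinned (8.09%) and without the top 1% (7.24%). It was also 0 with gates at 250 CPM (5.64%) or 1000 CPM (7.52%), and 2 were lower with a filter of 10 reads (6.76%) or none (3.89%). With 10 CPM added, low genes cannot reach 2-fold by construction. The cause of the other changes was not tested. The summed level of cluster 1 was 366 CPM at all 3 cluster resolutions. Of the summed levels recomputed, 31 stayed within their interval, 17 moved out of it, and 3 ratios of d8 against primed cells turned negative. Of the counts of higher genes 50 stayed close to those reported and 11 moved, and of lower genes 39 stayed close and 22 moved. Counts that stayed at 0 are among those close. With 1 library the spread between cultures is unknown, and genes under 50 reads could not be compared. No paired analysis was possible because the populations have no replicates.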
